A study of Mus musculus with 2 samples.

Results

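Glycolysis breaks glucose down to pyruvate, and in macrophages its genes are read together with the genes that low oxygen induces. The group described here holds 35 of the 31053 genes counted in these libraries. Its members were chosen by gene symbol from knowledge of the pathway: 15 glycolytic enzymes, 5 transporters of glucose and lactate, 3 regulators of glycolytic flux, and 12 genes of the hypoxia axis, which are HIF-1-alpha itself and genes that it is known to induce or that act on it. Every symbol matched exactly 1 counted gene.

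The cells were monocytes and macrophages taken from skin wounds of mice on day 6 after injury. A non-diabetic and a diabetic library were compared, each made from enzymatically dissociated cells of 2 mice that had been pooled before 10x Chromium 3′ single-cell RNA sequencing. The labels give neither the strains nor the model of diabetes, and they speak of pooling within a strain, so diabetes, strain and the single library cannot be told apart. With 1 library for each group there is no replicate and no test: every interval below covers counting error only, and every difference is a difference between these libraries.

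As background, hexokinases trap glucose in the cell, phosphofructokinase commits it to glycolysis, and lactate dehydrogenase converts pyruvate to lactate, which monocarboxylate transporters carry out of the cell. When oxygen falls, prolyl hydroxylases no longer mark HIF-1-alpha for degradation, and the stabilised factor raises transcription of most glycolytic enzymes, of the glucose transporter Slc2a1, and of genes such as Bnip3, Ero1l and its own hydroxylase Egln3. Macrophages activated by microbial products use the same programme with oxygen present, and healing skin is known as a poorly oxygenated tissue. Messenger RNA levels show neither oxygen tension nor HIF protein nor glycolytic flux.

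A cell was kept when 500 or more genes were detected in it and mitochondrial genes took less than 10% of its unique molecular identifiers (UMIs, each a counted RNA molecule): 1123 of 2026 barcodes and 15429273 UMIs in the non-diabetic library, and 1755 of 2214 barcodes and 30435047 UMIs in the diabetic library. The median cell held 14079 and 16314 UMIs. The libraries shared 6 barcode sequences, 1 of them among kept cells. All 14 macrophage markers and all 10 classical monocyte markers on the lists used were measured, and summed to 5826 and 5543 counts per 1000000 UMIs (CPM) in the non-diabetic library and 12562 and 3039 CPM in the diabetic library. Immediate early and dissociation genes summed to 15097 and 12304 CPM. Markers on the lists of other cells were present too: fibroblast markers summed to 238 CPM in the non-diabetic and 18.0 CPM in the diabetic library, and neutrophil markers to 238 and 4459 CPM. The neutrophil sum does not stand for neutrophils alone. The neutrophil-like cluster described further on held 16 cells, and S100a8 of that list was among the leading genes of the Stfa3-led cluster. Leaving out the 19 non-diabetic and 31 diabetic cells with at least 5 stromal UMIs moved no member across 1.5-fold except Hk2, whose log2 ratio became -0.58. The 7 keratinocyte markers summed to 0.84 CPM in the non-diabetic and 1.77 CPM in the diabetic library. The 7 T and NK cell markers summed to 0.32 and 2.30 CPM. Of these, Krt5, Krt15, Krt6a, Krt1 and Dsp and the T and NK cell markers Cd3e and Gzma were at 0.

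The 35 members together took 1.13% of UMIs in the non-diabetic library and 1.09% in the diabetic library. The enzymes made up 0.886% and 0.811%, and the hypoxia axis 0.194% and 0.214%. Summed over all kept cells, the group was therefore at nearly the same level in both libraries, while single members went in both directions. In the hypoxia axis sum Hif1a and Mif weigh most, at 559 and 473 CPM in the non-diabetic and 709 and 672 CPM in the diabetic library. Both were higher in the diabetic library, while the median log2 ratio of the 12 members was -0.08. Each member counts in this sum by its abundance, also by cluster and by cell. Of the 35 members, all of which had at least 20 UMIs over both libraries, 5 were at least 1.5-fold higher in the diabetic library (Pfkm, Ldhb, Slc16a1, Pfkfb3 and Adm) and 5 at least 1.5-fold lower (Hk2, Pfkp, Eno1, Slc2a6 and Ndrg1). Among all 12337 genes measured by that rule, 18.7% were higher and 12.9% lower by 1.5-fold, so the members passed the fold no more often upward than genes at large, and 3 of the 5 higher members were counted at under 20 CPM. Among genes at 20 CPM or more in either library, 2 of 31 members were higher, against 9.75% of all 5569 such genes, and 5 were lower, against 9.97%. The median log2 ratio, diabetic over non-diabetic, was -0.08 for the members and 0.12 for all measured genes. A sum over cells does not tell fewer cells of a state from less RNA in each cell, which is why the clusters are described further on.

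**Figure D1:**
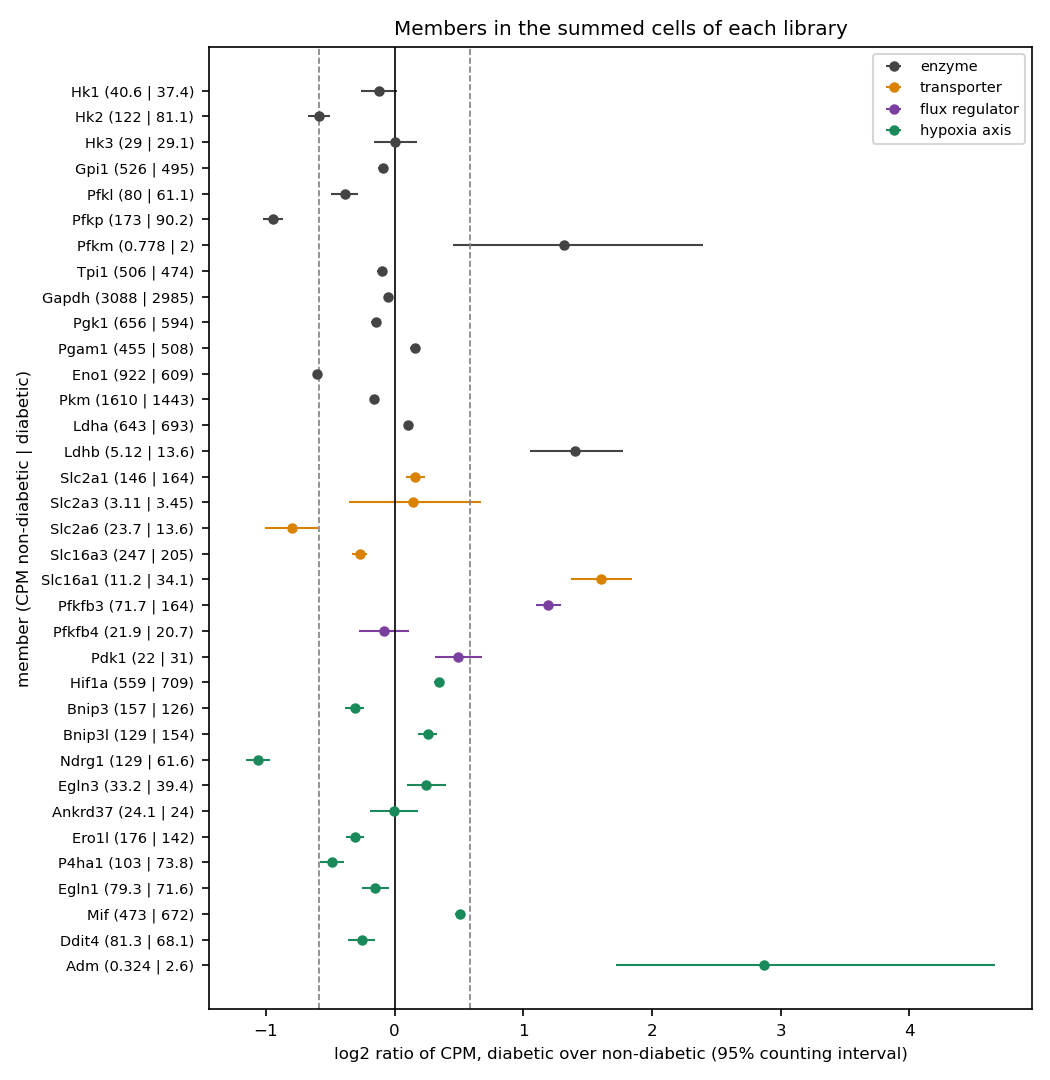
Log2 ratio of CPM, diabetic over non-diabetic library, for the 35 members in the summed kept cells, coloured by role, with 95% exact counting intervals and CPM of both libraries beside each symbol (dashed lines: 1.5-fold). Most points lie within the dashed lines; Ndrg1, Pfkp and Slc2a6 lie to the left of them, with Eno1 and Hk2 at the line, and Pfkfb3, Slc16a1, Ldhb, Pfkm and Adm to the right.

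Among the enzymes at 20 CPM or more, Hk2 and Pfkp of the early steps and Eno1 of the later ones were at least 1.5-fold lower in the diabetic library, and none was higher. Hk2, the inducible hexokinase, stood at 121.7 CPM (95% interval 116.2 to 127.3) in the non-diabetic and 81.1 CPM (77.9 to 84.4) in the diabetic library, a log2 ratio of -0.59 that lay right at the 1.5-fold limit. Pfkp, the platelet-type phosphofructokinase subunit, stood at 173 CPM (167 to 180) and 90.2 CPM (86.8 to 93.6), a log2 ratio of -0.94 (-1.02 to -0.86). The liver-type subunit Pfkl was at 80.0 and 61.1 CPM, a log2 ratio of -0.39, and the muscle-type Pfkm gave only 12 and 61 UMIs. Pfkp thus made up 68.2% of phosphofructokinase UMIs in the non-diabetic library (exact binomial interval 66.7 to 69.7%) and 58.8% (57.4 to 60.2%) in the diabetic library. Within the hexokinases, Hk2 made up 63.6% and 55.0% of UMIs, while Hk1 and Hk3, at 40.6 and 29.0 CPM in the non-diabetic and 37.4 and 29.1 CPM in the diabetic library, differed by less than their counting error.

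The later enzymes were the most abundant members and, apart from Eno1, differed little. Gapdh, the glyceraldehyde-phosphate dehydrogenase, stood at 3088 CPM in the non-diabetic and 2985 CPM in the diabetic library, and Pkm, the pyruvate kinase, at 1610 and 1443 CPM. Gpi1, Tpi1 and Pgk1 had log2 ratios of -0.09, -0.10 and -0.15, and Pgam1 and Ldha of 0.16 and 0.11. Eno1, the enolase, was the exception, with 922 CPM (907 to 938) in the non-diabetic and 609 CPM (600 to 617) in the diabetic library, a log2 ratio of -0.60, which was -0.49 over all barcodes and -0.34 without the Inhba-led cluster described further on. Ldhb, the lactate dehydrogenase subunit of oxidative tissues, went the other way on few counts, with 79 UMIs or 5.12 CPM against 413 UMIs or 13.6 CPM, a log2 ratio of 1.40 (1.06 to 1.77). It nevertheless made up only 0.790% of lactate dehydrogenase UMIs in the non-diabetic and 1.92% in the diabetic library, the rest being Ldha. The counts of Eno1, Gapdh and Pfkm are the less certain ones. Of the 35 members, 13 have a near-identical copy among annotated transcripts (at least 95% identity over at least 200 bases). For these 3 such a copy is itself counted, Eno1b with 160 UMIs in the non-diabetic and 244 in the diabetic library. For Pfkm it is Gm26513, annotated as antisense but matching Pfkm in the sense direction, with 4 and 9 UMIs.

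Of the transporters, Slc2a1, the main inducible glucose transporter, stood at 146 CPM (140 to 153) in the non-diabetic and 164 CPM (159 to 168) in the diabetic library, and Slc16a3, the lactate exporter of glycolytic cells, at 247 and 205 CPM. Slc16a1, a lactate and pyruvate transporter that carries in both directions, was at 11.2 CPM (173 UMIs) in the non-diabetic and 34.1 CPM (1038 UMIs) in the diabetic library, a log2 ratio of 1.60 (1.37 to 1.85). Its share of the UMIs of both monocarboxylate transporters was 4.35% and 14.3%. Slc2a6, a glucose transporter of intracellular membranes, was lower at 13.6 CPM in the diabetic library than at 23.7 CPM in the non-diabetic library, a log2 ratio of -0.80 (-1.01 to -0.59), or -0.44 with each cell weighted equally. Slc2a3, the high-affinity glucose transporter, gave only 48 and 105 UMIs.

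Pfkfb3 makes the sugar bisphosphate that activates phosphofructokinase. It was at 71.7 CPM (67.6 to 76.1) in the non-diabetic and 164 CPM (160 to 169) in the diabetic library, a log2 ratio of 1.20 (1.10 to 1.29), the opposite direction to the phosphofructokinase subunits Pfkp and Pfkl. Its relative Pfkfb4 was at 21.9 and 20.7 CPM, so that Pfkfb3 made up 76.6% of the UMIs of both genes in the non-diabetic and 88.8% in the diabetic library. Pdk1, the kinase that keeps pyruvate from entering mitochondrial oxidation, was at 22.0 and 31.0 CPM, a log2 ratio of 0.49 (0.31 to 0.68).

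In the hypoxia axis, Hif1a was at 559 CPM (547 to 571) in the non-diabetic and 709 CPM (700 to 719) in the diabetic library, a log2 ratio of 0.34. Its best known targets did not all follow it. Ndrg1, a stress-responsive gene of the N-myc downstream regulated family, was lower, at 129 CPM (123 to 134) in the non-diabetic and 61.6 CPM (58.9 to 64.5) in the diabetic library, a log2 ratio of -1.06 (-1.15 to -0.97), the largest difference in that direction among the members. Bnip3, which marks mitochondria for removal, was at 157 and 126 CPM, and its relative Bnip3l at 129 and 154 CPM, so that Bnip3 held 54.9% of the UMIs of this pair in the non-diabetic and 45.1% in the diabetic library. Ero1l, an oxidase of the endoplasmic reticulum, and P4ha1, a collagen prolyl hydroxylase subunit, had log2 ratios of -0.31 and -0.48.

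The oxygen-sensing hydroxylases went apart by little: Egln1 had a log2 ratio of -0.15 and Egln3, the HIF-induced one, of 0.25 (0.10 to 0.40). Mif, a secreted cytokine that is HIF-inducible, was at 473 CPM in the non-diabetic and 672 CPM in the diabetic library, a log2 ratio of 0.51. Ddit4, an inhibitor of mTORC1, had a log2 ratio of -0.26 and Ankrd37, a small ankyrin repeat protein, of -0.01. Adm, the peptide hormone adrenomedullin, was rare, with 5 UMIs in the non-diabetic and 79 in the diabetic library.

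Genes of the same pathways outside the group are to be read against the same shares of all genes, 18.7% higher and 12.9% lower. Of 37 further genes of glycolysis and linked carbon metabolism, 27 were measured, 7 of them at least 1.5-fold higher (Eno2, Pfkfb2, Bpgm, Gpd1, Pdk2, Pdp1 and Slc2a9) and 2 lower (Hkdc1 and Mpc1) in the diabetic library. All 7 higher genes were under 20 CPM in both libraries; Eno2, the neuronal enolase, had the largest ratio, with 19 UMIs in the non-diabetic and 470 in the diabetic library, a log2 ratio of 3.61 (2.99 to 4.39). The genes under 20 CPM are named after their values were seen. Aldoa, the aldolase of this step sequence, is carried by 2 identifiers and was read from the abundant one, which stood at 1138 CPM in the non-diabetic and 944 CPM in the diabetic library. Mpc1, a subunit of the mitochondrial pyruvate carrier, was lower, at 153 and 88.8 CPM, a log2 ratio of -0.78. Of 15 genes of the pentose phosphate pathway and glycogen metabolism, 2 were higher (H6pd and Gbe1) and 2 lower (Gys1 and Pygm, the latter under 20 CPM). Of 47 other hypoxia-inducible and HIF axis genes, 39 were measured, with 7 higher and 7 lower. This list also holds regulators of HIF such as Arnt, Vhl and Hif1an, and it shares Gbe1, Gys1 and Pfkfb2 with the lists above. Vegfa, the angiogenic factor and a textbook HIF target, stood at 438 CPM (428 to 449) in the non-diabetic and 202 CPM (197 to 207) in the diabetic library, a log2 ratio of -1.12. Bhlhe40, a transcriptional repressor, was lower as well, at 332 and 127 CPM, a log2 ratio of -1.39. Nos2, the inducible nitric oxide synthase, was higher, at 55.7 CPM (52.1 to 59.6) and 207 CPM (202 to 212), a log2 ratio of 1.89. Anxa2 had a log2 ratio of -0.74, Hmox1 of 0.59, Tfrc of 1.13 and Plod1 of 0.71. The measured genes of this list of hypoxia-inducible and HIF axis genes thus had a median log2 ratio of 0.03, with genes on both sides.

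Over cell states the members ranged more widely than between the library sums. Those sums are mixtures of the same cells, so a wider range over clusters follows from the way the values are made. Joint clustering of the kept cells, done without the members and without the pathway lists above, gave 15 clusters, which are called here by a leading gene. Of these, 10 drew over 90% of their cells from 1 library, among them the Inhba-led cluster (330 non-diabetic cells and 3 diabetic cells), the Osm-led cluster (137 and 3), the Stfa3-led cluster (1 and 311), the Il1rn-led cluster (11 and 335) and the Il6-led cluster (2 and 99). The markers supported a name for 5 clusters: macrophage-like (led by Cd163), monocyte-like (marked by Ly6c2, and again an interferon-rich cluster led by Ifit2), dendritic cell-like (with Cd209a) and neutrophil-like (with Retnlg, 16 cells, all diabetic). A cluster led by Lars2 had a median of only 4228 UMIs a cell. The neutrophil-like cells gave 69.4 enzyme UMIs and 13.6 transporter UMIs per 10000 UMIs. Both clusters were left out of the comparison of levels, which leaves 13 clusters.

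**Figure D2:**
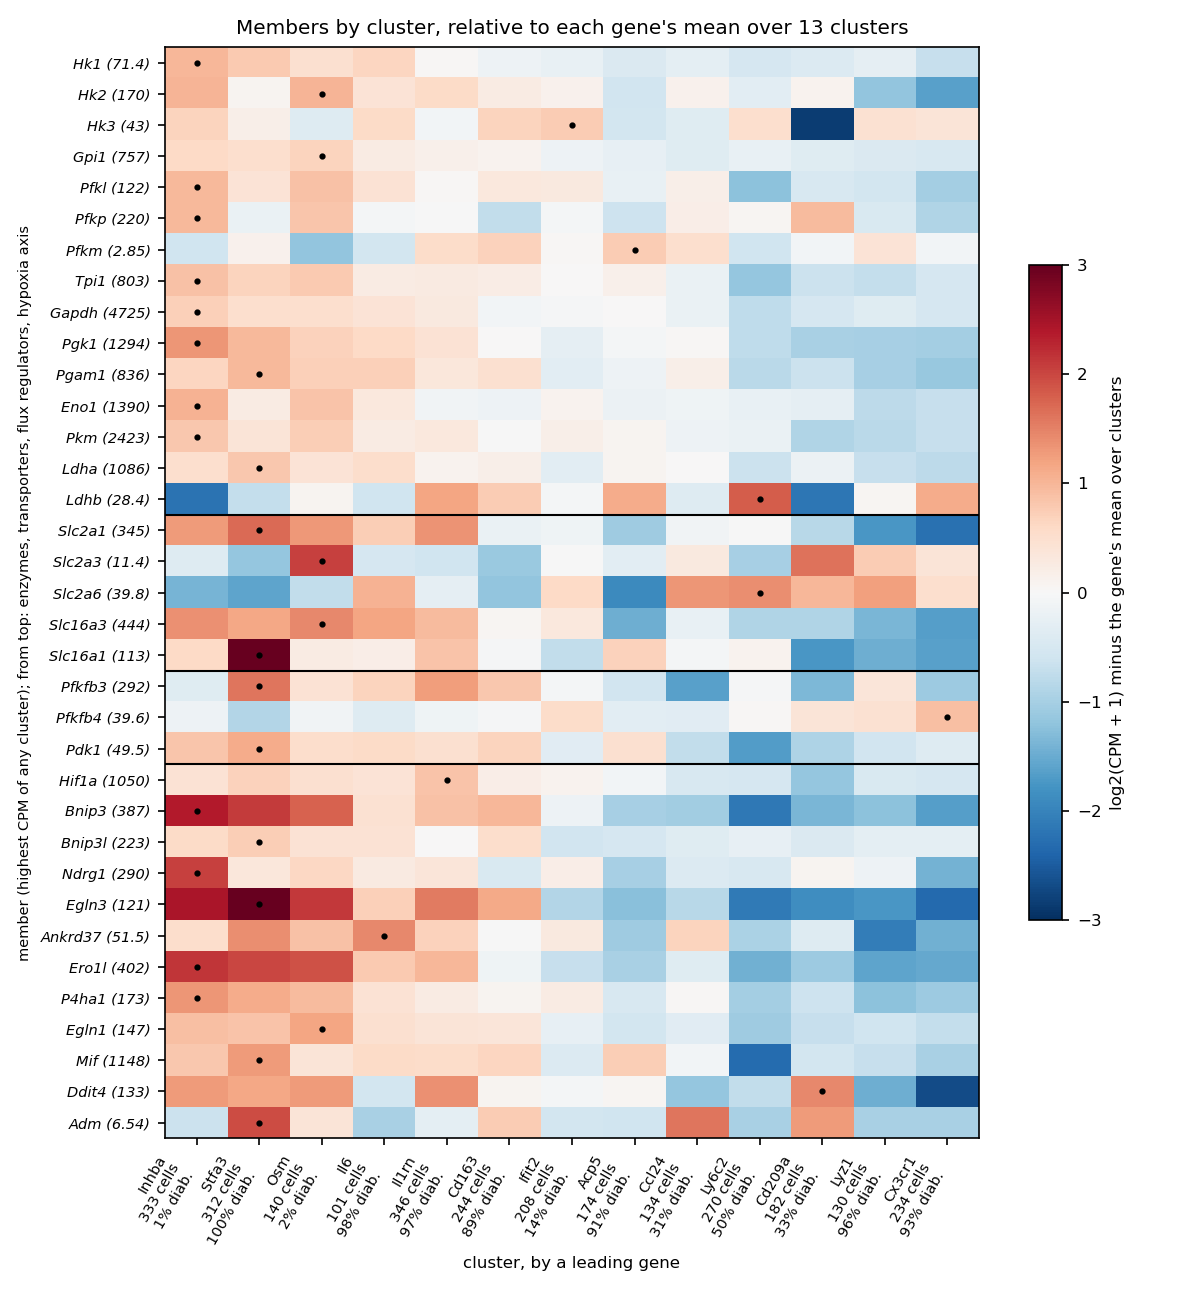
Level of each member in 13 clusters, as log2(CPM + 1) minus the gene's own mean over those clusters, with clusters along the x axis, called by a leading gene (cells of both libraries, share of diabetic cells) and members by role along the y axis with the highest CPM of any cluster. A dot marks each member's highest cluster: 12 dots lie in the Inhba-led, 10 in the Stfa3-led and 5 in the Osm-led column.

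By these clusters, the glycolytic enzymes together were highest in the Inhba-led cluster, with 135.3 UMIs per 10000 (95% interval 134.2 to 136.5), then in the Osm-led (120.1), Stfa3-led (113.6), Il6-led (101.4) and Il1rn-led (92.1) clusters. They were lowest in the Cx3cr1-led cluster, at 49.3 UMIs per 10000, close to the Lyz1-led (51.1), Ly6c2-marked (53.3) and Cd209a-marked (54.4) clusters, so the range was 2.74-fold. The macrophage-like Cd163-led cluster lay between, at 78.4 per 10000. Of the 10 neutrophil markers, 2 were at least 2-fold higher in the Stfa3-led cluster than in other cells, with S100a8 among its leading genes, and of 9 interferon response genes 5 were so in the Inhba-led cluster. The hypoxia axis ranged 4.45-fold, from 36.4 UMIs per 10000 in the Stfa3-led and 34.2 in the Inhba-led cluster down to 8.18 in the Ly6c2-marked cluster, and the transporters 8.30-fold. Both orders were nearly the same: over the 13 clusters, enzyme and hypoxia axis sums had a Spearman rho of 0.96 and a Pearson r of 0.95. The clusters share libraries and the sums share their totals, so this is a description. Enzyme sums had a rho of -0.13 with the clusters' median UMIs per cell, -0.05 with the level of immediate early and dissociation genes, and -0.47 with the mitochondrial share. They had a rho of -0.82 with the share of ribosomal protein UMIs, which was 7.12% in the Inhba-led and 19.8% in the Ly6c2-marked cluster; its part in the order was not tested.

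Both libraries thus held cells at either end of the range. In the non-diabetic library, the Inhba-led cluster had 29.4% of the cells and 37.7% of the enzyme UMIs, and the Osm-led cluster a further 16.8% of the enzyme UMIs. In the diabetic library, the Stfa3-led cluster had 17.7% of the cells and 27.4% of the enzyme UMIs, and the Il1rn-led cluster 18.4%. The cells of highest enzyme level came from different clusters in the 2 libraries. Clustering was done without batch correction, and 10 of the 15 clusters drew over 90% of their cells from 1 library. Such a split is therefore largely given by the clustering, and an offset between the libraries cannot be told apart from it.

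Within the hypoxia axis, Egln3 had the widest range of any member with a fold: 121 CPM in the Stfa3-led cluster, 81.5 CPM in the Inhba-led cluster and 2.04 CPM (7 UMIs) in the Cx3cr1-led cluster, or 59.5-fold. Bnip3 ranged 24.4-fold, from 387 CPM in the Inhba-led cluster and 318 CPM in the Stfa3-led cluster to 15.9 CPM in the Ly6c2-marked cluster. Ero1l followed the same order, from 402 and 367 CPM in those clusters to 29.5 CPM in the Lyz1-led cluster, a range of 13.6-fold. These 3 genes were high in both the Inhba-led and the Stfa3-led cluster and near their lowest in the monocyte-like Ly6c2-marked and the Cx3cr1-led clusters. Hif1a itself moved less, 4.01-fold, from 1050 CPM in the Il1rn-led cluster to 262 CPM in the Cd209a-marked cluster. Ndrg1 differed from the others in being high in the Inhba-led cluster mainly: 290 CPM there, 106 CPM in the next cluster, the Osm-led one, and 25.3 CPM in the Cx3cr1-led cluster.

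Among the enzymes, Gpi1 had the narrowest range, from 757 CPM in the Osm-led cluster to 343 CPM in the Cx3cr1-led cluster, or 2.21-fold. Pgk1 ranged 5.06-fold, Hk2 6.43-fold, and Gapdh, often taken as a reference gene, 2.79-fold from 4725 to 1692 CPM. Slc2a1 ranged 16.0-fold, from 345 CPM in the Stfa3-led cluster to 21.6 CPM in the Cx3cr1-led cluster, and Slc16a3 8.71-fold. Slc16a1 ranged 35.7-fold, and its 113 CPM in the Stfa3-led cluster stood well above the next value, 24.2 CPM in the Il1rn-led cluster. Mif ranged 12.2-fold, from 1148 CPM in the Stfa3-led to 94.4 CPM in the Ly6c2-marked cluster.

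Not every member followed the common order. Ldhb was highest in the Ly6c2-marked monocyte-like cluster, at 28.4 CPM, and lowest in the Inhba-led cluster, where 3 UMIs were counted. Slc2a6 was highest in the same monocyte-like cluster (39.8 CPM) and had a rho of -0.61 with the sum of the enzymes over clusters. Pfkfb4 was highest in the Cx3cr1-led cluster (39.6 CPM) and lowest in the Stfa3-led cluster (10.7 CPM), with a rho of -0.67. Pfkp was nearly as high in the dendritic cell-like cluster (216 CPM) as in the Inhba-led one (220 CPM), and Hk3 was nearly missing from the dendritic cell-like cluster, at 2.58 CPM (9 UMIs) against 43.0 CPM in the Ifit2-led cluster. Ddit4 had its highest level in the dendritic cell-like cluster too, at 133 CPM.

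Egln3, Bnip3, Ero1l and Slc2a1 were all high in the Inhba-led, Osm-led and Stfa3-led clusters. At the low end Slc2a1 differed: it stood at 105 CPM in the Ly6c2-marked cluster, above its median over clusters (97.3 CPM), where Bnip3 was at its lowest. The promoters of these 4 genes are shown, with that of Gpi1, the member of narrowest range, for contrast. Each is the 250 bases before the annotated start in RefSeq, build GRCm38.p6, written 5′ to 3′ on the gene's strand. Capitals mark the core of the hypoxia response element, ACGTG or GCGTG, on either strand (read as CACGT or CACGC on the reverse strand; overlapping matches, as in CACGTG, count on each strand). Egln3 lies on the minus strand at chr12:54203875-54204124 and holds 1 match, Bnip3 on the minus strand at chr7:138909507-138909756 with 5, Ero1l, which RefSeq calls Ero1a, on the minus strand at chr14:45318573-45318822 with 3, Slc2a1 on the plus strand at chr4:119108495-119108744 with 2, and Gpi1 on the minus strand at chr7:34230337-34230586 with 0.
Egln3: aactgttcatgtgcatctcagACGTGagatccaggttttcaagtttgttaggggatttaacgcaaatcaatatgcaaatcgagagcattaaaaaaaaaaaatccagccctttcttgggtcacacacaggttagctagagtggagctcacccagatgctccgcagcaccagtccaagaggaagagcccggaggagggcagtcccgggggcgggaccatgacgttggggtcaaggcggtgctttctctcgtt
Bnip3: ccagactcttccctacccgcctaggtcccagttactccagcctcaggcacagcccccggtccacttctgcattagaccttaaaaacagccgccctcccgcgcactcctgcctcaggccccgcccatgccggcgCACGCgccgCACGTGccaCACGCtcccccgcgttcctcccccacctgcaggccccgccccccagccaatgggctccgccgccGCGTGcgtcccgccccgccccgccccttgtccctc
Ero1l: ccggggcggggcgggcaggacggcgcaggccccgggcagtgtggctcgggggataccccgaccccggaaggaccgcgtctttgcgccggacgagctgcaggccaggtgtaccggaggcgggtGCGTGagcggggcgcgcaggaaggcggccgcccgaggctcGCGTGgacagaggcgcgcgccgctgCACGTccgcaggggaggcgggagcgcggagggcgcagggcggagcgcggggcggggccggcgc
Slc2a1: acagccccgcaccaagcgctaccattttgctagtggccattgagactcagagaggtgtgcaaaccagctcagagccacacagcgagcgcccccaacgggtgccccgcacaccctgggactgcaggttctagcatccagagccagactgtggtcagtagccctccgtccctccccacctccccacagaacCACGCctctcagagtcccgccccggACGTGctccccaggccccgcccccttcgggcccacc
Gpi1: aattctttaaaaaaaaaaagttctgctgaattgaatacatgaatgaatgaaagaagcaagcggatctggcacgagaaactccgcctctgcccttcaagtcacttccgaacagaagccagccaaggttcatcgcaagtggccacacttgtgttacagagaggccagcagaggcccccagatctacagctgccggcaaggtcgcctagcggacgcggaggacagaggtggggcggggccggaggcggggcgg
Of the members, 32 had an entry in the promoter table, with 42 windows. ACGTG was found in 21 of the 42 windows (50%), against 16.6% of all 32851 windows of that length, and ACGTG or GCGTG in 35 (83.3%), against 38.6%. Members were chosen in part as genes that HIF-1-alpha is known to induce, so these shares are not independent of the choice. Some members have several windows, and windows of Pfkm and of Eno1 overlap in part. The member windows were richer in G and C, with a median of 62.8% against 52.4%, and the part of base composition in the counts was not tested. By role, 8 of 10 windows of hypoxia axis genes and 8 of 23 windows of enzymes held ACGTG. Egln3, whose range over clusters was 59.5-fold with 7 UMIs in its lowest cluster, holds 1 match, and Bnip3, with 24.4-fold, holds 5. A relation between the number of matches and the range was not tested. Gpi1 was shown for its range and not for its lack of a match. Mif and Tpi1 hold 0 matches as well and ranged 12.2-fold and 4.14-fold, while Gapdh holds 2 and ranged 2.79-fold. A match to so short a motif is a description of the sequence and not a bound site.

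The Inhba-led and the Stfa3-led clusters, the high clusters of either library, were compared directly: 330 non-diabetic cells of the former and 311 diabetic cells of the latter. They held the hypoxia axis at 34.1 UMIs per 10000 in the Inhba-led and 36.4 in the Stfa3-led cells, with the enzymes at 135.3 and 113.7. These sums depend on where the clusters are drawn: at a clustering resolution of 0.5, where the Inhba-led and Osm-led cells fell into 1 cluster, that cluster held 27.1 hypoxia axis and 113.8 enzyme UMIs per 10000, and the Stfa3-led cluster 113.3 enzyme UMIs per 10000. Hif1a and Mif, which weigh most in the hypoxia axis sum, stood at 787 and 822 CPM in the Inhba-led and 941 and 1149 CPM in the Stfa3-led cells. Between these cells, 24.9% of 9532 measured genes were at least 1.5-fold higher in the Stfa3-led cells and 19.2% lower, against 5 members higher (Ldhb, Slc16a1, Pfkfb3, Ankrd37 and Adm) and 5 lower (Hk2, Pfkp, Eno1, Pfkfb4 and Ndrg1) of 33 measured. Of the 5 higher and the 5 lower members, 4 each had passed the fold between whole libraries. These cells make up much of both library sums, so the whole-library values are not independent of this comparison.

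Slc16a1 stood at 19.4 CPM (15.2 to 24.4) in the Inhba-led non-diabetic cells and 113 CPM (105 to 122) in the Stfa3-led diabetic cells, a log2 ratio of 2.53 (2.19 to 2.91). Pfkfb3 stood at 71.9 CPM (63.6 to 80.9) and 292 CPM (278 to 306), a log2 ratio of 2.02 (1.84 to 2.21). Ankrd37 was at 27.0 and 50.1 CPM, a log2 ratio of 0.89 (0.56 to 1.23). In the other direction, Ndrg1 was at 292 CPM (275 to 309) in the Inhba-led cells and 87.7 CPM (80.4 to 95.6) in the Stfa3-led cells, a log2 ratio of -1.73 (-1.89 to -1.58). Pfkp, at 221 and 97.7 CPM, had a log2 ratio of -1.18, Hk2 of -0.95, Pfkfb4 of -0.82 and Eno1 of -0.79. Other hypoxia axis members differed by less than 1.5-fold: Ero1l was at 404 and 368 CPM, Bnip3 at 388 and 318 CPM, and Egln1 at 123 and 117 CPM, where the interval of the log2 ratio ran from -0.23 to 0.11. Egln3, at 82.4 and 122 CPM, fell just short of 1.5-fold, with a log2 ratio of 0.56 (0.37 to 0.76).

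**Figure D3:**
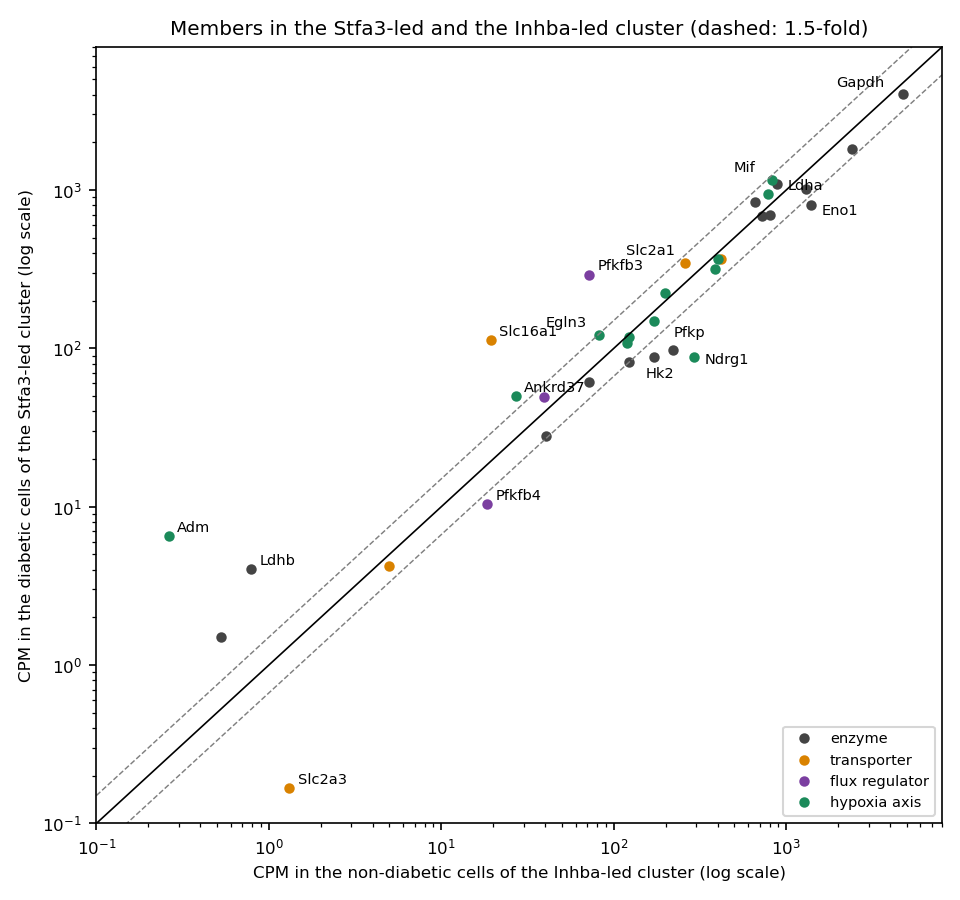
CPM of each member in the 330 non-diabetic cells of the Inhba-led cluster (x axis, log scale) and in the 311 diabetic cells of the Stfa3-led cluster (y axis, log scale), coloured by role (solid line: equal, dashed: 1.5-fold). Slc16a1 and Pfkfb3 lie far above the line and Ndrg1, Pfkp, Hk2 and Eno1 below it, while Gapdh, Mif, Egln3 and Slc2a1 lie near it.

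These 2 clusters held much of several whole-library differences. Of the Slc16a1 UMIs of the diabetic library, 64.7% lay in the Stfa3-led cluster, and without that cluster the log2 ratio of Slc16a1 between libraries was 0.41 in place of 1.60. Of the Ndrg1 UMIs of the non-diabetic library, 56.0% lay in the Inhba-led cluster, and without it the log2 ratio was -0.29 in place of -1.06. Without the Inhba-led cluster 9 members were at least 1.5-fold higher and 2 lower, where 16.6% of all measured genes were higher and 13.4% lower, and the median of the enzymes turned from -0.10 to 0.21. Without the Stfa3-led cluster 4 members were higher and 8 lower, where 20.6% of all measured genes were higher and 12.4% lower. There the enzyme median was -0.25 and the hypoxia axis median -0.46 in place of -0.08, with Bnip3 at -0.97, Ero1l at -1.02 and P4ha1 at -0.89. Leaving out the Inhba-led cluster moves Bnip3 the other way, since that cluster held 61.1% of the Bnip3 UMIs and 24.7% of all UMIs of the non-diabetic library. Each of these clusters came almost wholly from a single library and was among the highest in these genes. Leaving it out lowers the levels of that library, so shifts in these directions follow from the choice of cells. The enzyme median without both clusters and the hypoxia axis median without the Inhba-led cluster are given at the end.

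Cells of both libraries could be compared within a cluster in 3 cases. In the Ly6c2-marked monocyte-like cluster, with 136 non-diabetic and 134 diabetic cells, the enzymes stood at 55.7 (54.7 to 56.7) and 50.7 (49.7 to 51.8) UMIs per 10000 and the hypoxia axis at 7.60 and 8.82. Hif1a alone stood there at 368 CPM in the non-diabetic and 459 CPM in the diabetic cells. Of 31 measured members, 5 were at least 1.5-fold higher and 2 lower in the diabetic cells, where 10.9% of all genes were higher and 12.2% lower. Ldhb was at 13.9 CPM in the non-diabetic and 44.6 CPM in the diabetic cells, a log2 ratio of 1.67 (1.06 to 2.35), and Bnip3 at 7.66 and 24.9 CPM on 16 and 47 UMIs, a log2 ratio of 1.67 (0.86 to 2.62). Slc2a1 was at 84.3 and 128 CPM, a log2 ratio of 0.60, with Slc16a1 higher on 18 and 38 UMIs and Ddit4 on 42 and 71 UMIs. Eno1 was lower, at 708 CPM in the non-diabetic and 439 CPM in the diabetic cells, a log2 ratio of -0.69 (-0.81 to -0.57), and so was Ankrd37, on 27 and 9 UMIs.

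In the dendritic cell-like cluster marked by Cd209a, with 122 non-diabetic and 60 diabetic cells, the enzymes stood at 57.3 and 48.2 UMIs per 10000. Of 29 measured members, 2 were higher (Slc2a3 and Hif1a) and 4 lower (Hk1, Slc2a6, Ndrg1 and P4ha1) by 1.5-fold, where 10.6% of all genes were higher and 15% lower. For Hk1 the interval included equality, at -1.42 to 0.07. Hif1a was at 215 CPM in the non-diabetic and 364 CPM in the diabetic cells, a log2 ratio of 0.76 (0.56 to 0.95), while P4ha1 was at 54.1 and 21.8 CPM, a log2 ratio of -1.29 (-2.01 to -0.68). The median over members was -0.28, against -0.04 for all genes measured there.

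In the Ccl24-led cluster, with 92 non-diabetic and 42 diabetic cells, the enzymes were higher in the diabetic cells, at 65.9 (64.5 to 67.3) and 78.6 (76.8 to 80.5) UMIs per 10000. Of 30 measured members, 7 were higher and 4 lower by 1.5-fold, where 21.8% of all genes were higher and 17.1% lower. The higher ones were Pgk1, Pkm, Slc2a1, Pfkfb3, Pdk1, Bnip3l and Ndrg1, and the lower ones Hk2, Pfkp, Slc2a6 and P4ha1. For Pdk1 the interval included equality, at -0.19 to 2.14. Pkm was at 1003 CPM in the non-diabetic and 1620 CPM in the diabetic cells, a log2 ratio of 0.69, Pgk1 had a log2 ratio of 0.64 and Bnip3l of 1.38 (0.99 to 1.79). Hk2 and Pfkp were lower, at log2 ratios of -1.02 and -1.04, as between the whole libraries, and Slc2a6 was at 53.2 and 13.8 CPM. Immediate early and dissociation genes summed to 16320 CPM in the non-diabetic and 8928 CPM in the diabetic cells of this cluster, interferon response genes to 812 and 325 CPM, and cycling genes to 27.0 and 211 CPM, and their part in these differences was not tested. Across the 3 clusters no member passed 1.5-fold in 1 direction in all of them.

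**Figure D4:**
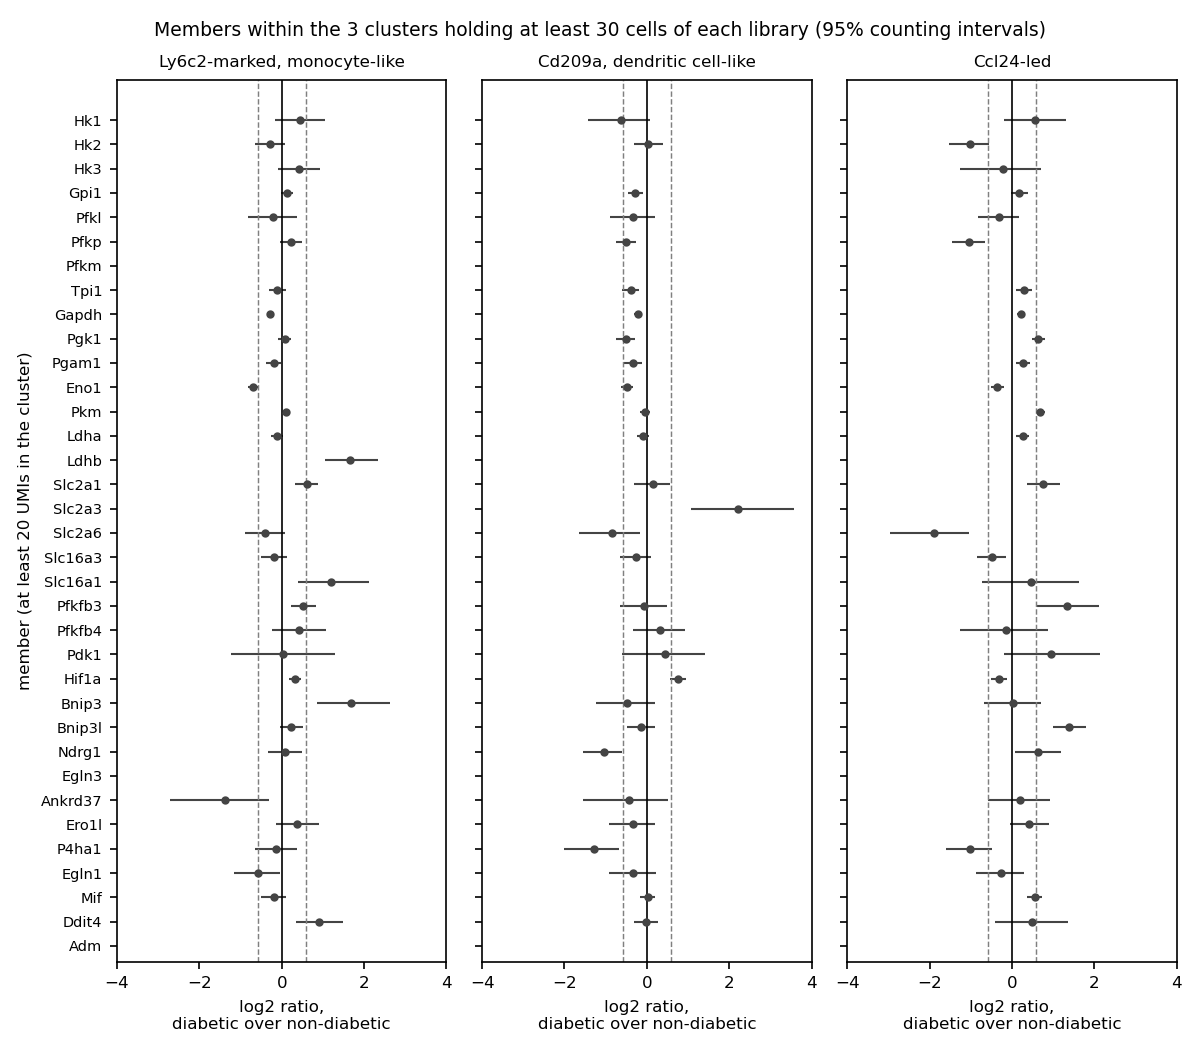
Log2 ratio, diabetic over non-diabetic cells, of the members with at least 20 UMIs in each of the 3 clusters that hold at least 30 cells of either library, with 95% exact counting intervals (dashed lines: 1.5-fold). Ldhb and Bnip3 lie to the right in the Ly6c2-marked cluster, P4ha1 and Ndrg1 to the left in the Cd209a-marked cluster, and Slc2a6 far to the left in the Ccl24-led cluster.

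Cell by cell, the median cell gave 73.6 enzyme UMIs per 10000 of its UMIs in the non-diabetic library and 71.3 in the diabetic library, a ratio of 0.968. The filter mattered here: when the limits were loosened to 200 genes and 20% mitochondrial UMIs the ratio was 1.08, and over all deposited barcodes 1.20. The hypoxia axis gave 16.6 and 18.7 UMIs per 10000 in the median cell. Single cells varied widely within a cluster: in the Inhba-led cluster the non-diabetic cells had a median of 125.2 enzyme UMIs per 10000 with quartiles at 94.2 and 154.1, and in the Ly6c2-marked cluster the medians were 52.9 and 47.6. Enzyme and hypoxia axis scores of single cells had a Spearman rho of 0.73 over 1123 non-diabetic cells and 0.77 over 1755 diabetic cells. Within clusters rho ran from 0.18 in the Lyz1-led to 0.73 in the Cd163-led cluster. Enzyme scores had a rho of 0.07 and 0.19 with the cells' total UMIs over the non-diabetic and diabetic library. Within clusters that rho was higher in several, at 0.43 in the Inhba-led, 0.39 in the Ccl24-led, 0.37 in the Ly6c2-marked and 0.31 in the Osm-led cluster. Cells of a library are not replicates, both scores share the cell's total, and no p is given.

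**Figure D5:**
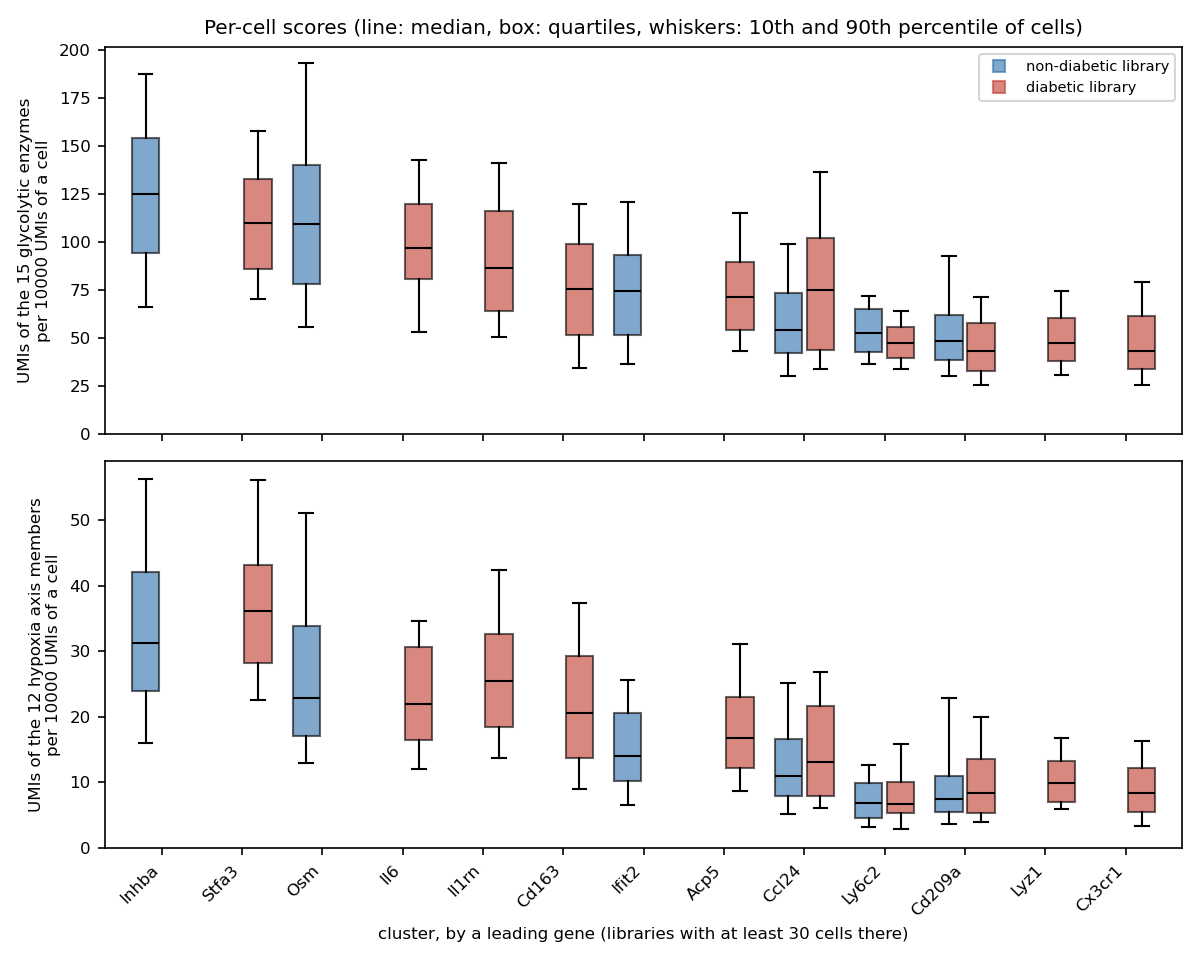
Enzyme (upper panel) and hypoxia axis (lower panel) UMIs per 10000 UMIs of a cell, by cluster and library where a library has at least 30 cells in the cluster (line: median, box: quartiles, whiskers: 10th and 90th percentile of cells). Both panels fall from the Inhba-led, Stfa3-led and Osm-led clusters on the left to the Ly6c2, Cd209a, Lyz1 and Cx3cr1 clusters on the right.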

How the data were processed

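The deposited values were whole-number counts of UMIs per gene and cell barcode, made by the authors with Cell Ranger 3.0.2 and the mm10 build per the submitters' processing notes and the file headers; the annotation release is not given in the sources used here. Reads from 2 pooled mice make 1 library a group, so no test was run. Kept cells were summed by library and cluster, expressed as counts per 1000000 UMIs (CPM) with exact Poisson intervals, and compared as log2 ratios of sums with 0.5 added and exact conditional binomial intervals (95%), a calculation tested on simulated data. "Measured" means at least 20 UMIs over both sides of a comparison. Scanpy 1.11.5 clustered both libraries jointly (2000 variable genes, 30 components, 15 neighbours, Leiden resolution 1) without batch correction. In this step 131 genes, the members and the pathway lists, were left out. Clusters are called by a gene among the 10 of highest fold at 100 CPM or more and found in at least 25% of their cells; the last condition and the choice of gene were set after seeing the data. A cluster is named from its markers at least 2-fold higher in it than in other cells. Scrublet marked 3 non-diabetic and 5 diabetic cells, under 0.5% of either library, which were kept. Copies of members were sought with BLAST 2.17.0 in GENCODE M21. Every member is accounted for, with fuller values for those at 20 CPM or more; of other pathway genes, up to 12 at least 1.5-fold different at 20 CPM or more are named, with Vegfa and Aldoa. The members and lists were chosen with earlier results of these data known. The pair of clusters compared and the promoters shown were chosen after their values were seen.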

Additional observations from a re-analysis of the deposited data

Results flagged for a closer look

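Ndrg1 went in opposite directions in clusters that hold cells of both libraries. Its log2 ratio, diabetic over non-diabetic, was 0.63 in the Ccl24-led cluster (42.3 CPM in non-diabetic and 65.6 CPM in diabetic cells) and -1.05 in the dendritic cell-like cluster marked by Cd209a (86.9 and 41.7 CPM). Its counting intervals were 0.08 to 1.19 and -1.55 to -0.59, the former on 58 non-diabetic and 57 diabetic UMIs. A member was flagged when at least 1.5-fold higher in 1 cluster and lower in another, with neither interval reaching equality. The intervals of a flagged member therefore cannot overlap, and Ndrg1 was the only one flagged of the 35 members. With 1 library a group the difference between the clusters was not tested.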

How the results depend on the processing

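No single member reversed a called direction. Of 626 values for single members under alternatives, 534 kept their sign and their side of 1.5-fold. Another 52, of members under 1.5-fold in the main result, changed sign. Any of these that then passed 1.5-fold the other way are counted among the 52. The 1.5-fold difference was lost in 23 and gained with the same sign in 17. The median log2 ratio of the enzymes, -0.10, was -0.17 without the dendritic cell-like and neutrophil-like clusters, -0.18 with each cell weighted equally, -0.24 with each cell thinned to 2000 UMIs (37 non-diabetic and 25 diabetic cells too shallow), -0.17 with TMM and with DESeq2 size factors, -0.22 centred on the median of all genes (0.12), 0.21 without the Inhba-led, -0.25 without the Stfa3-led and 0.042 without both clusters. The hypoxia axis median, -0.08, was 0.51 without the Inhba-led and -0.46 without the Stfa3-led cluster. The 5 members higher became 9 without the Inhba-led cluster and 3 after thinning. The 5 lower became 2 without the Inhba-led cluster, without both, and over clusters with 30 cells of each library, 8 without the Stfa3-led cluster and 1 at 2-fold. The per-cell enzyme ratio, 0.968, was 1.08 with the looser filter, 1.20 over all barcodes, 1.18 without the Inhba-led and 0.864 without the Stfa3-led cluster. Leaving out both clusters, or all but those with 30 cells of each library, was chosen after seeing the data, as was leaving out cells with stromal UMIs or the Lars2-led cluster. Under other clusterings, enzyme levels of 5 clusters moved by up to 18.7% and hypoxia axis levels by up to 29.1%; at resolution 0.5 the Inhba-led and Osm-led cells shared a cluster, at 113.8 enzyme UMIs per 10000, beside 113.3 in the Stfa3-led cluster. No paired analysis was possible because each group has 1 library. Depth limits Pfkm, Slc2a3 and Adm, each under 4 CPM, and members with under 100 UMIs within clusters.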
